A study of Drosophila melanogaster with 35 samples.

Results

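Forty-name lists aside, E
cat > report.md <<'E'
The genes described here encode the machinery of DNA replication and the cell division cycle of Drosophila melanogaster: the origin recognition complex, the MCM helicase, licensing factors, the replication clamp, ribonucleotide reductase, cyclins and their kinases, mitotic kinases, the spindle checkpoint and the E2F transcription factors. They were taken by name, as the rows of 2 deposited expression tables whose gene symbol matched a list of 40 symbols, together with the deposited chromatin and 6mA regions that overlapped their loci. Of the 40 symbols, 39 had a row in both tables, out of 15163 genes in the table for BG3C2 cells and 15061 genes in the table for brain. The symbol without a row was fzr, an activator of the anaphase-promoting complex, the ubiquitin ligase that ends mitosis. Some rows carry older symbols: lat is Orc3, dpa is Mcm4, dup is Cdt1, mus209 is the clamp protein PCNA, cdc2 and cdc2c are Cdk1 and Cdk2, aur and ial are the Aurora A and Aurora B kinases, and E2f is E2f1.

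Replication starts where the origin recognition complex sits on DNA and, with Cdt1, loads the ring-shaped MCM2-7 helicase, a step called licensing that geminin holds in check. Cyclin E with Cdk2 drives entry into S phase, mitotic cyclins with Cdk1 drive entry into mitosis after the phosphatase String (Cdc25) has activated the kinase, and the spindle checkpoint delays anaphase until chromosomes are attached. The transcription factor E2F1 with its partner Dp switches on many of these genes in cycling fly cells, while E2F2 and the retinoblastoma protein Rbf repress them. Differentiated neurons do not divide and express few of them, whereas cell lines that grow in culture express most.

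The study concerned DMAD, the fly Tet protein, which is encoded by CG43444 (earlier CG2083) and, by the study's title, demethylates N6-methyladenine (6mA) in DNA. The RNA groups were 3 libraries of BG3C2 cells with DMAD knockdown, 3 libraries of BG3C2 cells labelled wild type, 2 libraries of brains labelled DMAD-knockout and 2 libraries of brains labelled wild type, among 35 samples in all. BG3C2 is a fly cell line derived from the larval nervous system. Knockdown cells, labelled as siRNA knockdown, had received dsRNA of 580 bp against CG2083 for 144 h, with serum starvation first and serum added back later. What control cells received, whether they were starved, and the allele, stage and sex of the brains are not given in the labels used here. Chromatin immunoprecipitation in BG3C2 cells covered DMAD (3 libraries, unperturbed cells), the Polycomb protein Pc (2 knockdown and 2 control), Wds, the fly WDR5 protein found in H3K4 methyltransferase complexes (1 and 1), and H3K4me3, the histone mark of active promoters (1 and 1). 6mA immunoprecipitation covered 3 knockdown and 3 control libraries of BG3C2 cells, and 1 knockout and 1 control library of brain.

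Each expression table holds 1 FPKM value per gene and group, made by the authors over the libraries of that group (FPKM is fragments scaled by transcript length and by the mapped fragments of the library, so levels can be set between genes). No spread between libraries could therefore be computed, the sequencing depth is unknown, and the only test is the one deposited by the authors with Cuffdiff, whose q-value is adjusted over all genes of the table. A gene is called here when the authors tested it and gave it a q-value below 0.05. Nothing in the labels tells whether libraries of a group stem from different cultures or flies, so the spread behind the deposited p-values may be technical.

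The target gene was lower in knockdown cells but did not pass the test. The authors' deposited table gave CG43444 an FPKM of 34.9 in knockdown cells and 65.9 in control cells, or 53.1% of the control level, with a log2 fold change of -0.91 (p = 0.0058, q = 0.706). In brain it stood at 40.4 FPKM in the libraries labelled knockout and 39.8 FPKM in control libraries (log2 fold change 0.02, q = 1.00 by the authors' deposited table). The allele is not given, and why the gene-level value was not lower in knockout brains was not tested. The value thus gives no support to the brain genotype, and knockout brains below are those so labelled. Neuronal markers were high in brain, where all 12 with a row were tested and lay between 58.6 and 699.9 FPKM in knockout and between 72.3 and 676 FPKM in control brains. In BG3C2 cells, 9 of those 12 were below 1 FPKM in both groups, and the defining neuronal gene elav stood at 10.8 FPKM in knockdown and 12.2 FPKM in control cells. The 7 haemocyte markers with a row had a median of 5.95 FPKM in knockdown and 6.88 FPKM in control cells. Of these, crq, vkg and srp lay between 119 and 196 FPKM in knockdown cells and between 135 and 171 FPKM in control cells, while the other 4 (Hml, Pxn, eater and He) were below 7 FPKM in both groups. Among the 10 glial markers, loco, nrv2 and moody lay between 69.5 and 142 FPKM in knockdown cells. In control cells these lay between 63.0 and 116 FPKM, and the rest of the glial list, with repo, was below 7 FPKM in both groups.

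After DMAD knockdown in BG3C2 cells, none of the 39 replication and cell cycle genes was called, yet 37 of the 39 had a lower FPKM in knockdown than in control cells. Their median log2 fold change in the authors' deposited table was -0.26, against -0.01 over all 8645 genes tested. The background for such counts was 0.254% of tested genes called and 51.6% of tested genes with a log2 fold change below 0. The exceptions were CycD, the cyclin that partners Cdk4 in growth control, at 36.5 FPKM in knockdown and 33.3 FPKM in control cells, and E2f2, at 24.1 FPKM in knockdown and 23.3 FPKM in control cells. The differences were small: summed over the 39 genes, FPKM came to 2161 in knockdown and 2554 in control cells. A log2 fold change below -0.4 was found for 9 of the 39, against a background of 6.7% of tested genes. In a bulk culture, fewer dividing cells and less of each transcript per cell cannot be told apart. Knockdown cells were serum-starved and received dsRNA, and whether control cells were treated alike is not given. Differences due to that handling and to DMAD knockdown therefore cannot be told apart. With 1 value per group, how far these values spread between libraries is not known, and genes that are expressed together are not independent observations.

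The MCM2-7 helicase, which unwinds DNA at the replication fork, had the lowest median of the role groups. Its 6 subunits had 27.2 to 43.4 FPKM in knockdown cells and 35.0 to 59.4 FPKM in control cells, and their deposited log2 fold changes lay between -0.46 and -0.36. The subunit dpa (Mcm4; dm3, arm 2R, 3384206 to 3387382) stood at 42.7 FPKM in knockdown and 58.9 FPKM in control cells, with a log2 fold change of -0.46 and p = 0.08125 in the authors' deposited table. Mcm7 (arm 3L, 8884695 to 8887410) had 42.5 FPKM in knockdown and 58.6 FPKM in control cells. Every subunit was lower in knockdown cells, by a similar proportion. Mcm5 (arm 3R, 6614249 to 6616872) stood at 28.7 FPKM in knockdown and 39.3 FPKM in control cells, Mcm6 (arm X, 6568421 to 6571205) at 43.4 FPKM in knockdown and 59.4 FPKM in control cells, and Mcm2 at 42.0 FPKM in knockdown and 56.9 FPKM in control cells. Mcm3 was the subunit with the smallest difference, at 27.2 FPKM in knockdown and 35.0 FPKM in control cells. Unadjusted p in the authors' deposited table was 0.10065 for Mcm6, 0.10165 for Mcm7 and 0.11565 for Mcm5, with log2 fold changes of -0.45, -0.46 and -0.45. The lowest p among the 6 was that of dpa, so none passed even before adjustment; the median log2 fold change was -0.45.

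The origin recognition complex, which marks origins and loads the helicase, was lower at all 6 subunits as well, with more scatter. Orc4, its most abundant subunit, had 35.4 FPKM in knockdown and 44.0 FPKM in control cells, while the other 5 lay between 10.1 and 13.7 FPKM in knockdown and between 11.0 and 18.6 FPKM in control cells. Deposited log2 fold changes ran from -0.44 for Orc5 to -0.03 for Orc6, with a median of -0.31. All 6 loci overlap another gene. The Orc1 locus is shared with CG2144, the lat locus with CG34315 and the Orc4 locus with ETH and CR43257. The Orc5 locus is shared with DNApol-gamma35 and the Orc6 locus with CG1667. The Orc2 locus, merged to 67173 bp, is shared with rdx, Cyp6d5 and CR43460. The split of reads between overlapping genes is not known.

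The licensing factor dup and its inhibitor geminin differed by nearly the same proportion. The factor dup stood at 22.7 FPKM in knockdown and 27.2 FPKM in control cells, and geminin at 100.5 FPKM in knockdown and 120.5 FPKM in control cells, which is 83.3% and 83.4% of control. The dup locus is shared with SRPK, and the split of reads between these 2 genes is not known. The clamp gene mus209 (arm 2R, 16149258 to 16150362), whose product holds polymerases on DNA, was the most abundant of the 39, with 219.8 FPKM in knockdown and 259.1 FPKM in control cells (log2 fold change -0.24, p = 0.3541 in the authors' deposited table). The 2 subunits of ribonucleotide reductase, which makes the building blocks of DNA, came next. RnrL (arm 2L, 10325025 to 10327943) had 149 FPKM in knockdown and 165 FPKM in control cells (log2 fold change -0.14, p = 0.5853 in the authors' deposited table). RnrS (arm 2R, 7870649 to 7872948) had 131 FPKM in knockdown and 163 FPKM in control cells (log2 fold change -0.32, p = 0.2177 in the authors' deposited table). None of these abundant genes came near the threshold.

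Among the regulators of the cycle, the lowest values relative to control belonged to an inhibitor and to the kinase it inhibits. The gene dap (dacapo, the fly p21/p27 protein, which blocks cyclin E with Cdk2; arm 2R, 5599828 to 5603607) stood at 19.1 FPKM in knockdown and 29.6 FPKM in control cells. It was 64.5% of control, with a log2 fold change of -0.63, p = 0.0342 and q = 1.00 in the authors' deposited table. It was thus 1 of 39 with an unadjusted p below 0.05, where the background was 2.31% of tested genes in either direction and 0.717% in the lower direction. The kinase gene cdc2c (Cdk2; arm 3R, 16561344 to 16564744) had 19.4 FPKM in knockdown and 27.8 FPKM in control cells (log2 fold change -0.52, p = 0.1625 in the authors' deposited table); its locus is shared with CG17267 and mir-995. The phosphatase gene stg had 85.3 FPKM in knockdown and 108.5 FPKM in control cells. Cdk4 and cdc2 stood closer to control, at 87.6% and 87.0% of its level.

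The 5 cyclins had a median log2 fold change of -0.17 in the authors' deposited table. CycA stood at 74.6 FPKM in knockdown and 84.1 FPKM in control cells, and CycB at 94.8 FPKM in knockdown and 101 FPKM in control cells; both drive mitosis with Cdk1. CycB3, a further mitotic cyclin, had 18.2 FPKM in knockdown and 22.1 FPKM in control cells, and CycE, the S-phase cyclin, had 13.2 FPKM in knockdown and 15.03 FPKM in control cells. CycB3 and CycE were at 82.4% and 87.8% of control. The mitotic genes polo, aur, ial and fzy had a median of -0.19. Of these, polo (arm 3L, 20302753 to 20306566), the Polo-like kinase and the fourth most abundant of the 39 in control cells, had 128 FPKM in knockdown and 152 FPKM in control cells (log2 fold change -0.25, p = 0.364 in the authors' deposited table). The APC activator fzy (Cdc20) had 59.0 FPKM in knockdown and 66.2 FPKM in control cells at a locus shared with cact.

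The spindle checkpoint genes BubR1, Bub3 and mad2 and the centromere gene cid, the fly CENP-A histone, had a median log2 fold change of -0.23. The centromere gene cid was the lowest expressed of the 39, with 5.56 FPKM in knockdown and 7.40 FPKM in control cells, and mad2 was near its control level, at 94.0% of it. The transcription factors that act on this programme differed least. E2f had 101.7 FPKM in knockdown and 107.3 FPKM in control cells, Rbf had 43.2 FPKM in knockdown and 47.2 FPKM in control cells, and the median log2 fold change of E2f, E2f2, Dp and Rbf was -0.10. Dp was the lowest of the 4 relative to control, with 80.7 FPKM in knockdown and 98.8 FPKM in control cells. The gene rap, which RefSeq gives as another name of fzr and which lies outside the list as matched by symbol, had 11.3 FPKM in knockdown and 13.4 FPKM in control cells (log2 fold change -0.24 in the authors' deposited table).

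**Figure D1:**
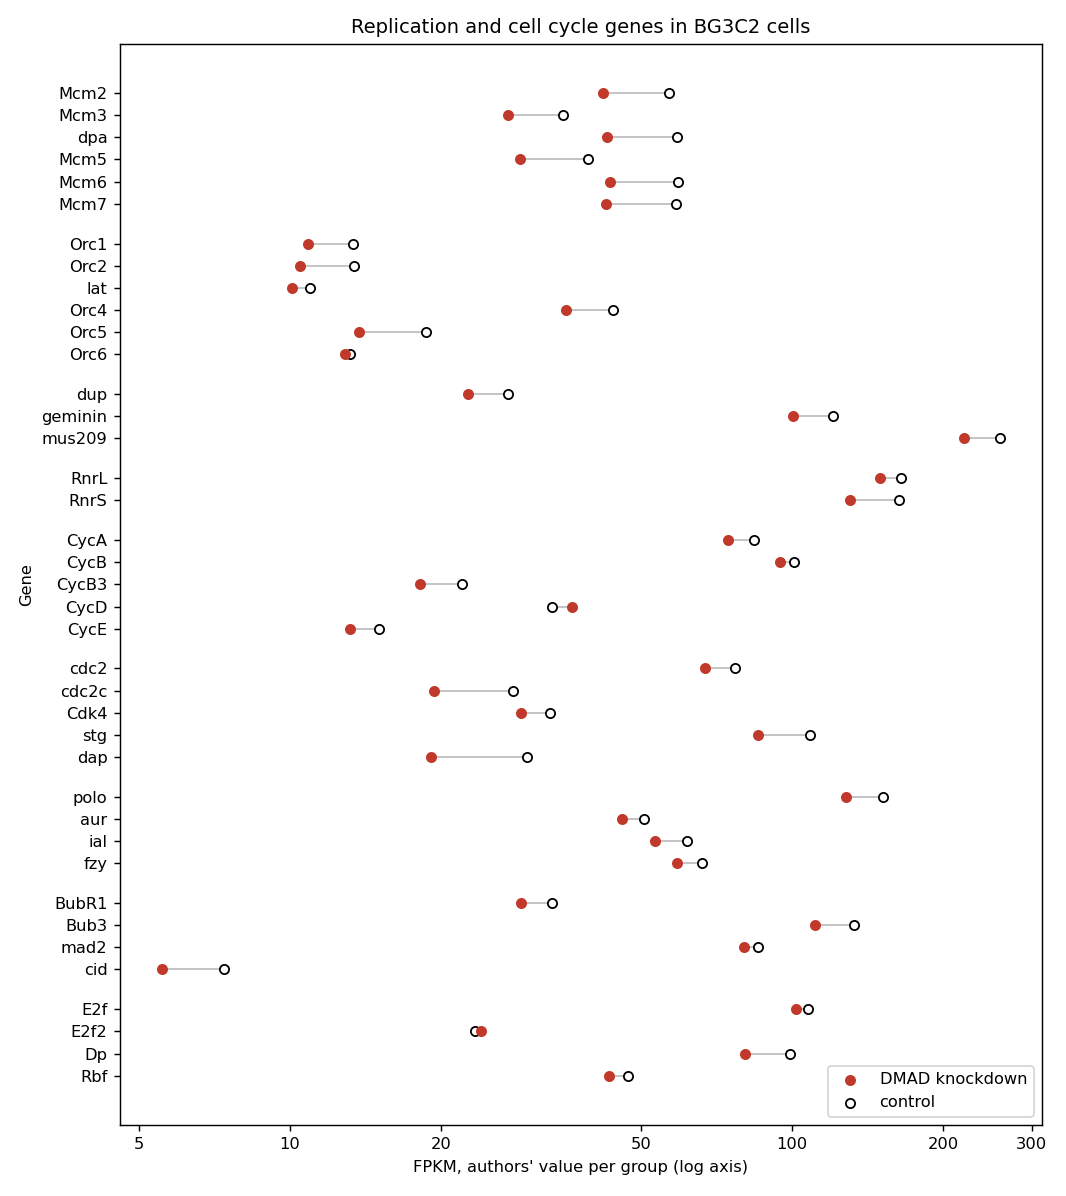
Deposited FPKM (log axis) of each of the 39 genes in BG3C2 cells with DMAD knockdown (filled points) and in control cells (open points), grouped by role, with 1 authors' value per group and no error. The filled point lies left of the open one for 37 genes, and right of it for CycD and E2f2.

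Genes of the same pathways outside the list lay on the same side of 0 for the most part, with a smaller median. Of 151 further genes listed by function, 146 had a row and 144 were tested in BG3C2 cells; none was called, 122 were lower and 22 higher in knockdown cells, and the median log2 fold change in the authors' deposited table was -0.19. Fork polymerases, the clamp loader and the single-strand binding protein RPA were lower at 18 of 19 genes (median -0.25). The primase-polymerase subunit DNApol-alpha73 stood at 11.5 FPKM in knockdown and 15.8 FPKM in control cells, and DNApol-alpha180 at 16.5 FPKM in knockdown and 21.7 FPKM in control cells. Cohesin and condensin genes were lower at 16 of 19 (median -0.28), with Cap-H2 at 9.90 FPKM in knockdown and 13.9 FPKM in control cells, and the condensin gene barr at 34.2 FPKM in knockdown and 45.5 FPKM in control cells. Spindle and cytokinesis genes were lower at 24 of 27 (median -0.26), and kinetochore genes at 17 of 20 (median -0.21), among them Spc105R, a kinetochore scaffold, with 17.1 FPKM in knockdown and 23.5 FPKM in control cells.

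The remaining lists lay nearer to 0. Nucleotide supply genes were lower at 7 of 8 (median -0.18), with ade5 of purine synthesis at 101 FPKM in knockdown and 128 FPKM in control cells. The further factors of helicase loading and activation were lower at 8 of 10 (median -0.13), with mus101 at 6.60 FPKM in knockdown and 8.58 FPKM in control cells. Partners of E2F and Rbf in the DREAM and Myb-MuvB complexes were lower at 7 of 8 (median -0.19). Within that list tomb stood higher, at 2.09 FPKM in knockdown and 1.28 FPKM in control cells, but it shares its locus with the condensin gene Cap-D3. Cdk regulators and checkpoint kinases were lower at 17 of 23 (median -0.07), and genes of the anaphase-promoting complex at 8 of 10 (median -0.06).

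In both of those last lists, 1 gene stood apart upwards without passing the adjusted test. The damage-response factor p53 (arm 3R, 18875378 to 18879804) had 80.4 FPKM in knockdown and 46.7 FPKM in control cells (log2 fold change 0.78, p = 0.03535, q = 1.00 in the authors' deposited table). Apc7, an APC subunit, had 6.40 FPKM in knockdown and 3.40 FPKM in control cells (log2 fold change 0.91, p = 0.0421, q = 1.00 in the authors' deposited table). Most genes of both lists lay on the other side of 0.

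**Figure D2:**
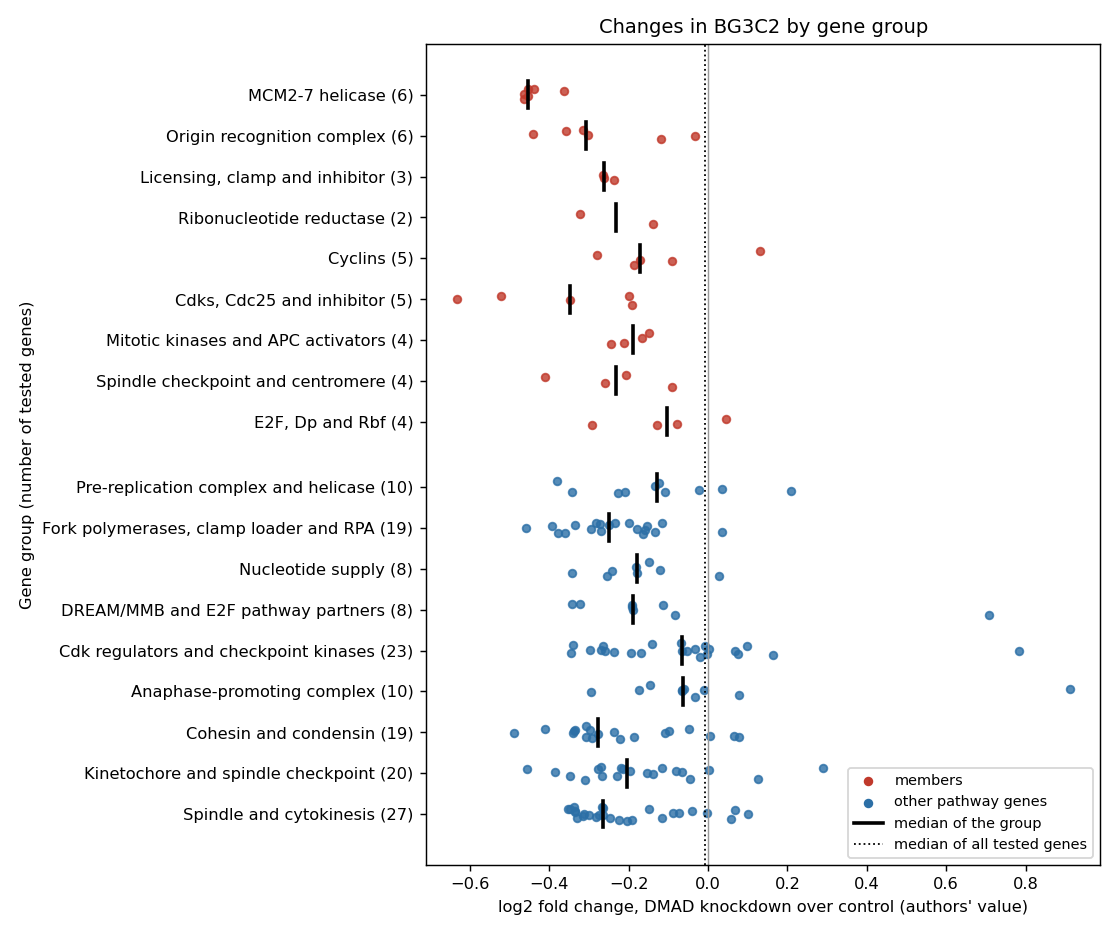
Deposited log2 fold change of each tested gene, DMAD knockdown over control BG3C2 cells, for the 9 role groups of the 39 genes (red) and for 9 lists of other pathway genes (blue); black bars are medians and the dotted line is the median of all tested genes. The MCM2-7 helicase has the lowest median of the groups shown (-0.45), and the points beyond 0.7 are tomb, p53 and Apc7.

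In brain most of these genes had low values, with a median of 1.98 FPKM in knockout and 1.71 FPKM in control brains. The authors tested 11 of these 39, and none of the 11 was called or had an unadjusted p below 0.05; the background was 0.762% of 8266 tested genes called and 3.51% with such a p. Of the 11, 9 were lower and 2 higher in knockout brains, with a median log2 fold change of -0.17 in the authors' deposited table, against -0.01 over all tested genes and 51.2% of tested genes below 0. The 2 higher genes were Cdk4, with 7.39 FPKM in knockout and 4.79 FPKM in control brains (log2 fold change 0.63, p = 0.21605 in the authors' deposited table), and Orc4, with 7.01 FPKM in knockout and 4.81 FPKM in control brains (log2 fold change 0.54, p = 0.32325 in the authors' deposited table).

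The lower genes were led by the licensing inhibitor geminin, with 11.1 FPKM in knockout and 17.8 FPKM in control brains (log2 fold change -0.68, p = 0.13615 in the authors' deposited table). E2f had 20.6 FPKM in knockout and 26.3 FPKM in control brains (log2 fold change -0.35, p = 0.14825 in the authors' deposited table). All 4 transcription regulators were tested, and each was lower in knockout brains. Dp, the most abundant of the 39 in brain, had 43.2 FPKM in knockout and 49.0 FPKM in control brains (log2 fold change -0.18, p = 0.51975 in the authors' deposited table), Rbf had 13.8 FPKM in knockout and 15.5 FPKM in control brains, and E2f2 had 15.8 FPKM in knockout and 16.2 FPKM in control brains. Bub3, of the spindle checkpoint, had 21.1 FPKM in knockout and 25.3 FPKM in control brains (log2 fold change -0.26, p = 0.46095 in the authors' deposited table). CycE stood at 4.25 FPKM in knockout and 5.03 FPKM in control brains (log2 fold change -0.24, p = 0.54285 in the authors' deposited table). The other 2, BubR1 and cdc2c, were at 98.1% and 90.0% of their control levels.

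The 28 genes that were not tested in brain lay at or below 3.36 FPKM in both groups, and at those levels the order was the other way round. Of the 28, 22 had the higher value in knockout brains and 6 in control brains, where 53.4% of all untested genes with values up to that level and above 0 in a group were higher in knockout brains. The 6 were RnrL, Orc6, dpa, Mcm6, CycD and RnrS, with RnrL at 1.98 FPKM in knockout and 3.36 FPKM in control brains. Several mitotic genes were in this range, and not all of them differed by much. The kinase gene cdc2 had 0.546 FPKM in knockout and 0.531 FPKM in control brains. CycA had 2.16 FPKM in knockout and 1.85 FPKM in control brains. CycB had 1.62 FPKM in knockout and 0.381 FPKM in control brains, cid had 2.83 FPKM in knockout and 0.719 FPKM in control brains, and aur had 1.22 FPKM in knockout and 0.428 FPKM in control brains. The phosphatase gene stg had 0.477 FPKM in knockout and 0.0766 FPKM in control brains, and fzy had 0.423 FPKM in knockout and 0.107 FPKM in control brains. The kinase genes polo, at 0.146 FPKM, and ial, at 0.476 FPKM in knockout brains, were listed at 0 in control brains. The authors attached no test to any of these, so whether such differences exceed the spread between libraries is not known. Taking all 39, the sum was 195 FPKM in knockout and 208 FPKM in control brains.

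Some markers of tissues other than neurons differed in level between the brain groups. The 8 fat body markers summed to 731 FPKM in knockout and 1775 FPKM in control brains. Of these, Yp1, Yp2 and fit, 3 of the 7 tested, were called lower, as were 0.375% of tested genes. Most of the sum came from the yolk protein genes Yp1, Yp2 and Yp3. These and fit are expressed mainly in females, and the sex of the brains is not given. Whether the groups differed in sex or in fat body was not tested. The list was not lower throughout: Obp99b had 33.3 FPKM in knockout and 15.8 FPKM in control brains (log2 fold change 1.07, unadjusted p = 0.0398 in the authors' deposited table), and Fbp1, which was not tested, had 2.84 FPKM in knockout and 1.47 FPKM in control brains. The 12 germline and eggshell markers summed to 46.4 FPKM in knockout and 34.1 FPKM in control brains. Without the eggshell gene Vm26Aa, at 15.5 FPKM in knockout and 3.04 FPKM in control brains, the sums would be nearly equal. The germline genes orb, at 8.31 FPKM in knockout and 11.7 FPKM in control brains, aub and piwi had the lower value in knockout brains, and none of the list was called. Of the 15 markers of neuroblasts, the dividing stem cells of the fly nervous system, ase, wor, l(1)sc, ac and nab were listed at 0 in both groups. The list summed to 119 FPKM in knockout and 128 FPKM in control brains, nearly all of it from pros, numb, brat and pnt. The other 11, among them dpn, mira and insc, were at or below 1.08 FPKM in both groups, so the sum is no measure of neuroblasts. The part of these tissues, or of sex, in the values of the cell cycle genes was not tested.

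Of the other pathway genes, 80 were tested in brain, with 34 lower and 46 higher in knockout brains and a median log2 fold change of 0.05 in the authors' deposited table. Over all genes tested in brain, 0.762% were called, 0.375% were called lower and 51.2% had a log2 fold change below 0. Among the 80, the single called gene was p53, which fell to 8.46 FPKM in knockout brains, against 33.9 FPKM in control brains (log2 fold change -2.002, p = 5e-05, q = 0.0103 in the authors' deposited table). Its direction in brain was thus opposite to that in BG3C2 cells; the difference between tissues was not tested. By list, the number lower in knockout brains was 5 of 6 for DREAM and Myb-MuvB partners (median -0.11), 8 of 12 for spindle and cytokinesis (-0.03) and 10 of 18 for Cdk regulators and checkpoint kinases (-0.02). It was 2 of 7 for fork polymerases (0.27), for the anaphase-promoting complex (0.20) and for kinetochore genes (0.075), and 1 of 4 for helicase loading and activation (0.044). Nucleotide supply genes were higher at 5 of 6 (median 0.63). Among them, ade5 had 48.7 FPKM in knockout and 28.9 FPKM in control brains (log2 fold change 0.75, p = 0.0076, q = 0.507 in the authors' deposited table), and ade2 had 8.44 FPKM in knockout and 4.10 FPKM in control brains (log2 fold change 1.04, p = 0.02115, q = 0.961 in the authors' deposited table). Cohesin and condensin genes were higher at 10 of 13 (median 0.12), with barr at 3.69 FPKM in knockout and 1.67 FPKM in control brains.

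**Figure D3:**
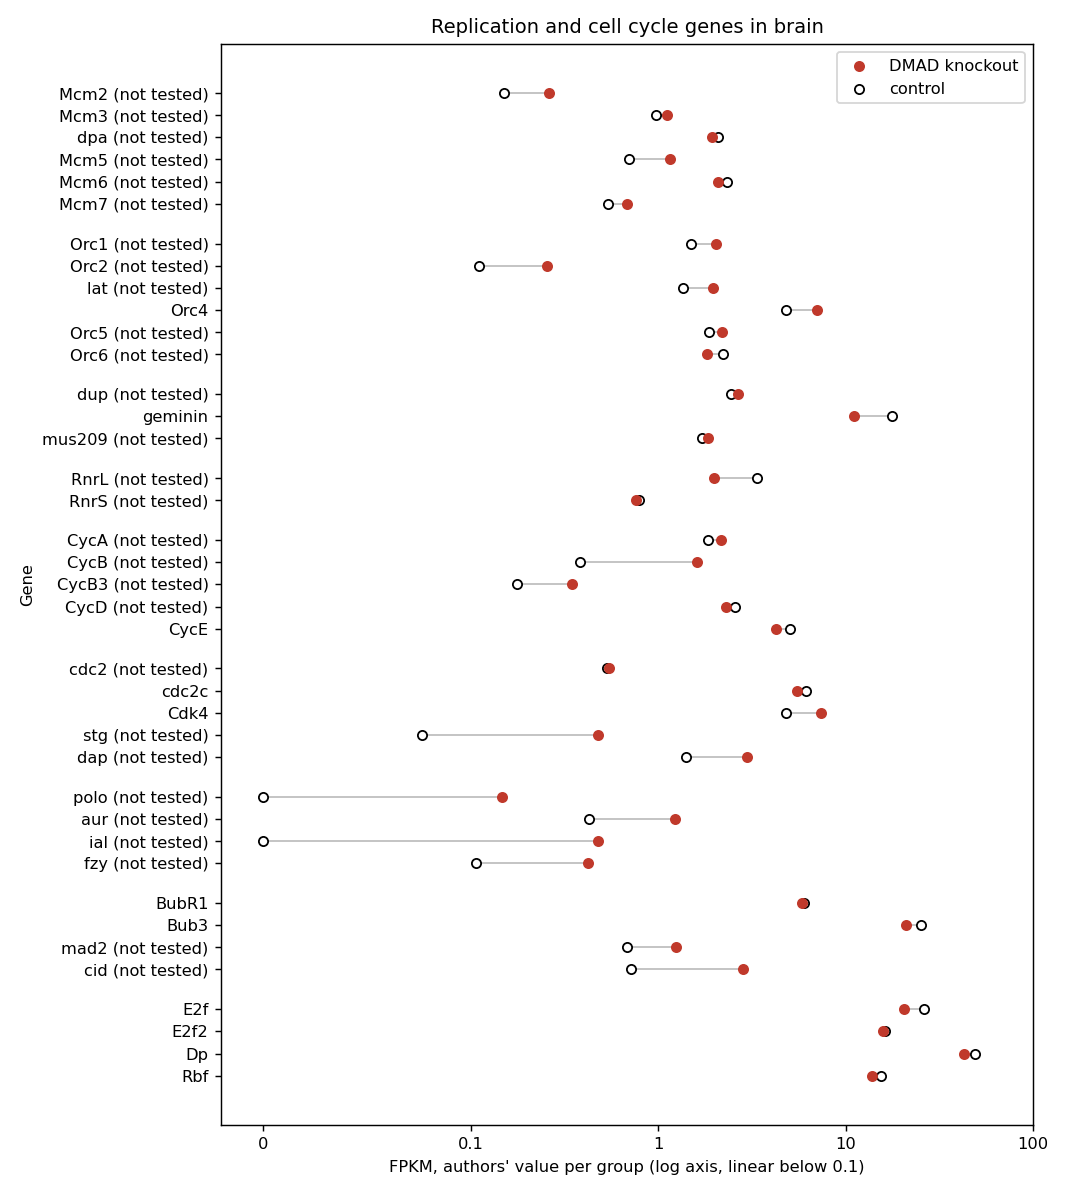
Deposited FPKM (log axis, linear below 0.1) of each of the 39 genes in DMAD-knockout brains (filled points) and control brains (open points), with 1 authors' value per group and no error; genes the authors did not test are marked. The 11 tested genes lie at 4 FPKM or more in both groups, and polo and ial are listed at 0 in control brains.

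These genes had far lower levels in brain than in the cell line. The 2 tables were normalised separately, so levels are set side by side and not tested. All 39 genes had a lower FPKM in control brains than in control BG3C2 cells, with a median of 3.92% of the BG3C2 value, against 67.5% of the 8576 genes tested in BG3C2 cells with a row in brain, whose median was 60.6%. Among the 6809 genes tested in both tables, a set that leaves out genes low in brain, 62.9% were lower, with a median of 71.2%. The gene rap (fzr), outside the list as matched by symbol, went the other way. It had 37.7 FPKM in control brains and 13.4 FPKM in control BG3C2 cells. In knockout brains it stood at 38.3 FPKM (log2 fold change 0.02 in the authors' deposited table). The order of the 39 genes was not kept. The genes closest to their BG3C2 level were the transcription regulators and CycE: E2f2 at 69.4%, Dp at 49.6%, CycE at 33.5%, Rbf at 32.7% and E2f at 24.5%. The farthest, after polo and ial, which were listed at 0, was stg, at 0.0766 FPKM in control brains and 108.5 FPKM in control BG3C2 cells. The clamp gene mus209 stood at 1.71 FPKM in control brains and 259.1 FPKM in control BG3C2 cells, and RnrS at 0.789 FPKM in control brains and 163 FPKM in control BG3C2 cells.

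Chromatin at the loci was described from the deposited region lists, by counting a locus when at least 1 bp of a region overlapped it. All 39 loci carried an H3K4me3 peak in knockdown and in control cells, against 83.7% and 82.4% of the loci of all 8645 genes tested in BG3C2 cells. All 39 carried an H3K27ac peak, a mark of active promoters and enhancers, in the list named for knockdown and in that named for control, against 88.4% of tested loci in each. Thus no locus lost or gained either mark as called. For H3K27ac and RNA polymerase II (Pol II) no sample was among the labels read here, so the group is known from the names of the lists alone, and the name of the Pol II control list reads BG3C3 where the other reads BG3C2.

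Pol II peaks covered fewer of these genes in the knockdown list, as they did of tested genes overall. A peak overlapped 20 of 39 loci in the knockdown list and 34 of 39 in the control list, against 45.9% and 69.8% of tested loci, although the knockdown list is the longer, with 7410 peaks against 6776. Peaks in both lists were found at 20 loci (background 41.4%), in the control list alone at 14 loci (background 28.4%) and in the knockdown list alone at none (background 4.55%). The 14 control-only loci were Mcm3, Mcm7, Orc4, geminin, mus209, RnrS, cdc2c, Cdk4, polo, ial, Bub3, cid, E2f2 and Rbf. Their median log2 fold change was -0.26 in the authors' deposited table, while the 20 loci with a peak in both lists had -0.27. The 5 loci without a peak in either list were Mcm6, Orc6, CycD, cdc2 and BubR1, of which cdc2 had 66.9 FPKM in knockdown and 76.9 FPKM in control cells. On arm X the knockdown list held 236 peaks and the control list 733; of the 4 genes on that arm, Mcm3, Mcm6, CycD and Rbf, none had a peak in the knockdown list and 2 had 1 in the control list, where 10.4% and 54.6% of all tested loci on arm X had one.

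Peaks of DMAD itself overlapped 26 of the 39 loci, against 57.4% of tested loci. Within 500 bp of a locus end, where promoters lie, there was a DMAD peak at 22, against 54.9%. Pc peaks overlapped 19 loci (background 50.6%) and lay at the ends of 21 (background 47.4%). Wds peaks overlapped 23 loci (background 50.9%) and lay at the ends of 21 (background 48.2%). As shares of the 39 loci, DMAD peaks overlapped 66.7% and Wds peaks 59%, both above the background, and Pc peaks 48.7%, near it. At locus ends the shares were 56.4% for DMAD and 53.8% each for Pc and Wds. The differences from the background were not tested.

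Loci with all 3 proteins and loci with none were about as frequent as among all tested genes. All 3 had a peak at 15 of the 39 loci (background 32%), including dpa, the ORC genes Orc1, Orc2, lat and Orc5, dup, geminin, mus209, CycB, CycB3, Cdk4 and stg. None of the 3 had a peak at 10 loci (background 27.4%), which were Mcm3, Mcm5, Mcm6, Mcm7, Orc6, RnrL, RnrS, CycD, cdc2 and polo. The helicase genes thus divided: dpa carried all 3 proteins, Mcm2 carried DMAD alone and the other 4 carried none, although their expression differences were alike. The median log2 fold change was -0.28 both for the 15 loci with all 3 proteins and for the 10 with none, in the authors' deposited table. It was -0.26 for the 26 loci with a DMAD peak and -0.25 for the 13 without. Over all tested genes, the median was -0.02 with a DMAD peak and 0.01 without. It was -0.02 for tested genes with all 3 proteins and 0.01 for those with none. Whether the expression differences depend on these peaks was not tested.

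**Figure D4:**
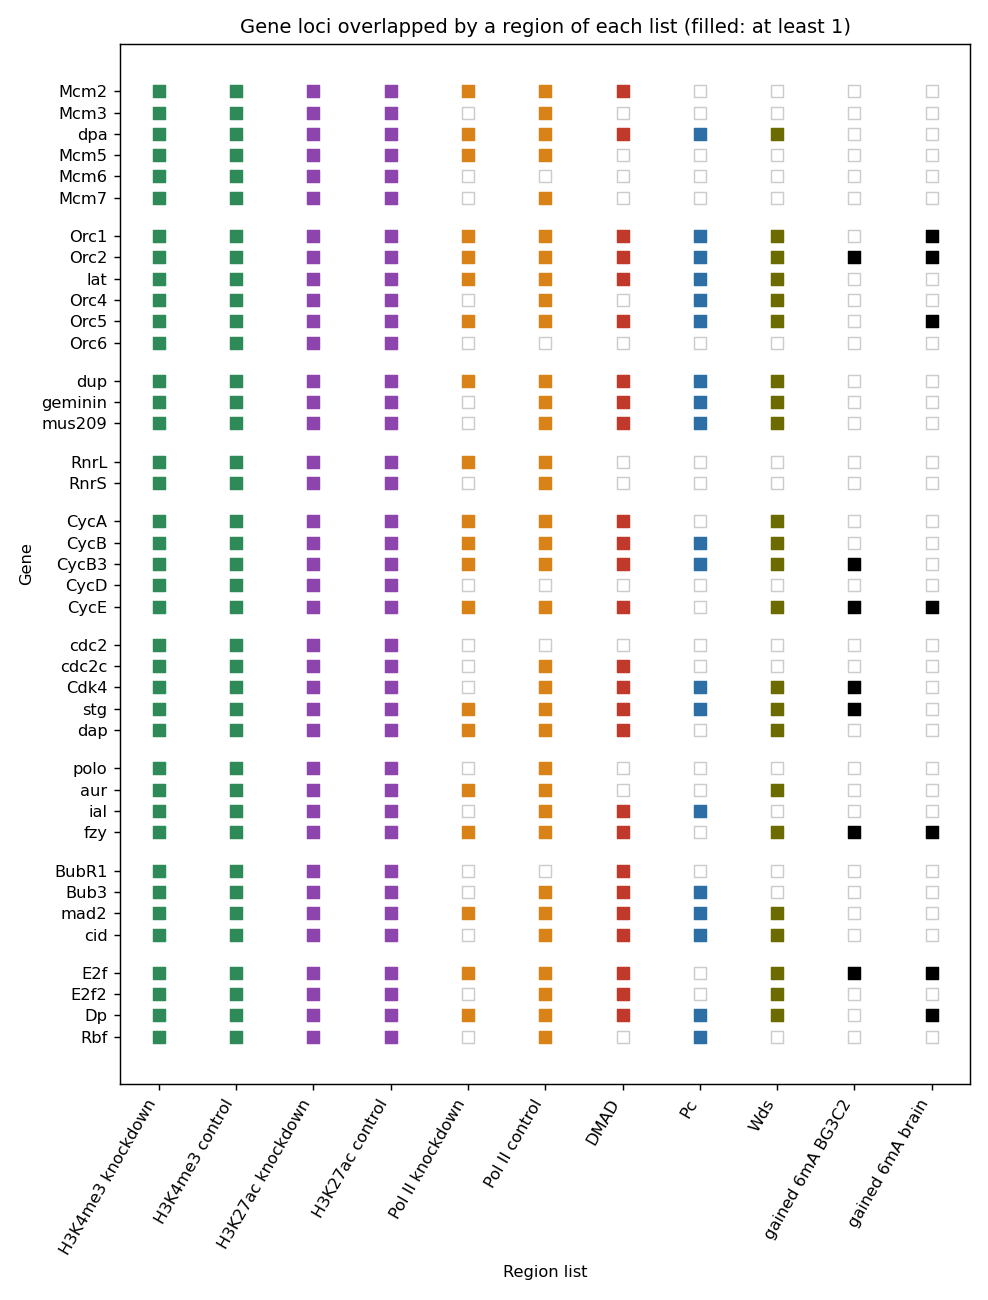
Region lists (columns) that overlap each of the 39 loci (rows, grouped by role); a filled square marks at least 1 region. H3K4me3 and H3K27ac columns are filled throughout, the Pol II knockdown column has 20 filled squares against 34 in the Pol II control column, and Mcm3, Mcm5, Mcm6 and Mcm7 carry no DMAD, Pc or Wds peak.

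Regions that gained 6mA after DMAD loss overlapped these genes about as often as tested genes in general. In BG3C2 cells they overlapped 7 of 39 loci, against 20.1% of tested loci, and lay within 500 bp of a locus end at 4, against 10%. In brain they also overlapped 7 of 39, against 20.1%, and lay at a locus end at 1, against 7.9%. Long loci hold more such regions. Of the 34 loci up to 10 kb, 3 overlapped a gained region in BG3C2 cells and 3 in brain, against 7.42% and 7.39% of tested loci of that length. Of the 5 longer loci (Orc2, dup, CycE, fzy and E2f), 4 overlapped a gained region in BG3C2 cells and 4 in brain, against 58.2% and 58.1%. The sources used here do not give how gain was called.

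The BG3C2 loci were Orc2, with 8 windows, E2f, with 2, and CycB3, CycE, Cdk4, stg and fzy, with 1 each. The 8 Orc2 windows lay 8395 bp or more from the nearer end of the merged locus. The Orc2, E2f and fzy loci overlap other genes, so their windows cannot be given to the cell cycle gene alone. At CycB3 the window (dm3, arm 3R, 20694001 to 20695000) lay in the gene and overlapped peaks of DMAD, Pc and, in control cells, H3K4me3, H3K27ac and Pol II. At stg the window (arm 3R, 25080001 to 25081000) overlapped peaks of DMAD, Pc and Wds and the same 3 control lists. At Cdk4 the window (arm 2R, 12467001 to 12468000) began 21 bp inside the locus and overlapped control H3K4me3 and H3K27ac peaks. The E2f window at 17485001 to 17486000 of arm 3R lay 161 bp from the locus end and overlapped the same marks and Pol II, whereas the other E2f window overlapped no peak of these lists. Log2 fold changes of these 7 genes in the authors' deposited table ran from -0.36 for Orc2 to -0.08 for E2f, with CycB3 at -0.28 and stg at -0.35.

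The brain loci were Orc2, with 8 regions, E2f, with 3, CycE and fzy, with 2 each, and Orc1, Orc5 and Dp, with 1 each. Of these 7, Orc2, CycE, fzy and E2f also held a BG3C2 window, and all 4 are among the loci over 10 kb. The regions themselves rarely coincided: at these genes, a single BG3C2 window (arm 3R, 9819001 to 9820000, in the merged Orc2 locus) overlapped a brain region (9818778 to 9819594). At Orc5 the brain region (arm 2L, 13832549 to 13833157) lay 10 bp from the locus end, at a site with DMAD and Pc peaks in BG3C2 cells. At Dp the region (arm 2R, 9111673 to 9112212) lay inside the locus, 3495 bp from its nearer end. Of the 7 brain loci, 6 overlap another gene, so the gained region cannot be given to the cell cycle gene alone. The locus column has no strand and no exons, so whether a region lies in an exon, an intron or a promoter is not stated.

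**Figure D5:**
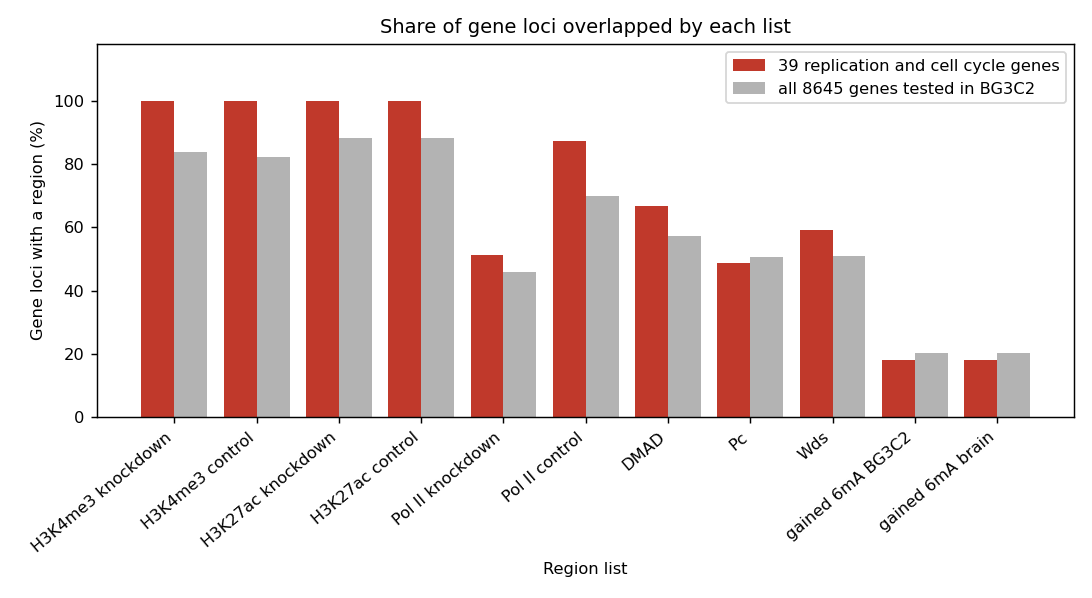
Share of loci (%) with at least 1 region of each list, for the 39 replication and cell cycle genes (red) and for all 8645 genes tested in BG3C2 cells (grey). The 39 genes stand at 100% for both histone marks, and within a few percentage points of all tested genes for Pc and gained 6mA.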

How the data were processed

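RNA was measured in 3 DMAD knockdown and 3 control BG3C2 samples and in 2 knockout and 2 control brain samples; depth per library is unknown. The submitters' processing notes name build dm3 (and mm9) and list Cuffdiff 2.2.1, TopHat2 2.0.8, Bowtie 0.12.9, bedtools, MACS 1.4.2 and CASAVA 1.4, without roles or settings. Per the file headers, the authors' Cuffdiff gene tables give 1 FPKM per gene and group, with their log2 fold change, p-value and q-value; the deposited log2 fold change is perturbed over control. The deposited H3K4me3 lists carry a MACS score per peak, used here only to take the upper 50% of peaks. The BG3C2 6mA windows were read as counting from 1 and the other lists as counting from 0, and loci were taken from the tables as given, without strand. Which libraries were merged into the DMAD, Pc and Wds lists is not given.

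Symbols were matched exactly; the RefSeq table (Release 6) matched 33 of 40 symbols directly and 7 as synonyms, 3 of which it gives to 2 genes. It served for names only. Calls are the authors' (tested, q below 0.05). Beyond those, counts, medians and overlaps of at least 1 bp were computed with Python 3.11.15, pandas 2.3.3 and numpy 2.4.6, and drawn with matplotlib 3.10.9; the overlap and counting steps were tested on simulated data. The 39 genes and all lists were chosen with earlier results of these data known. Given in full are genes with an unadjusted p below 0.05, the 6 largest changes and the 4 highest levels in each table; of other pathway genes, those with an unadjusted p below 0.05 and the 2 largest changes per list, described in part. CycD, mad2, rap and the untested brain genes named with values were chosen after their values were seen. A planned promoter motif count was not run, since no promoter sequences were used here. H3K27me3 and MNase samples were not analysed here.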

Additional observations from a re-analysis of the deposited data

How the results depend on the processing

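Of 67 alternatives computed, 50 kept their direction and stayed within 1.5 times the reported count or median. In BG3C2 cells, 1 of the 39 genes instead of 0 was counted at an unadjusted p below 0.05, while the count lower in knockdown cells was 37 of 39 under every filter, pseudocount (1 or 0.1) and centring tried. In brain, the direction depended on which genes were counted. With an FPKM of at least 1 in a group, 14 of 29 were lower in knockout brains and the median log2 fold change was 0.11, and with all genes above 0 in both groups, 15 of 37 were lower and the median was 0.19, against 9 of 11 and -0.17 among tested genes. The added genes are those at low FPKM. The median of the other pathway genes in brain was 0.073 with an FPKM of at least 1, against 0.046. Limiting the genes to the 23 whose locus overlaps no other lowered every region count, since fewer genes were counted: H3K4me3 and H3K27ac 23 in each list, Pol II 9 (knockdown) and 19 (control), DMAD 14, Pc 10, Wds 11, gained 6mA 4 in BG3C2 cells and 1 in brain. As shares of the genes counted, Pol II knockdown was 39.1% against 51.3%, Wds 47.8% against 59% and gained 6mA in brain 4.35% against 17.9%. No paired analysis was possible because each table holds 1 value per gene and group, and for the same reason no replicate could be left out. The promoter motif count was not run. Unknown depth limits what can be said of genes near 0 FPKM.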
